A study of Mus musculus with 40 samples.

Results

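The genes described here are those of the cytosolic ribosomal proteins, the protein parts of the ribosomes that translate nuclear-encoded mRNA. They were chosen by name among the protein-coding mouse genes, as Rpl (large subunit) or Rps (small subunit) followed by a number, with Rplp0, Rplp1, Rplp2 and Rpsa, and without the Rps6k kinases and pseudogenes. The rule gave 81 of the 37310 genes in the table, 49 of the large and 32 of the small subunit, and 79 of them (47 and 32) passed the filter on low values and were tested. The 2 that did not pass were Rpl10l, a testis-expressed retrogene copy of Rpl10 with reads in 1 of 25 samples, and Rpl39l, a germ cell copy of Rpl39 with reads in 16 samples and at most 1.66 CPM (a gene's counts scaled to a common library size).

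The samples were airway tissue of SWR/J and A/J mice painted with NTCU, a nitrosourea carcinogen that induces squamous lesions of the airway, or with its vehicle acetone, and RNA was taken by laser capture microdissection (LCM) or from whole lung. Of 40 samples, 25 passed the study's quality control and were used. The normal group held 7 acetone-treated samples (4 SWR/J and 3 A/J; 3 LCM and 4 whole lung). Mild dysplasia held 5 samples, all SWR/J (3 LCM and 2 whole lung) at a total dose of 15 µmol NTCU. High-grade held 13 samples (8 SWR/J and 5 A/J; 7 LCM and 6 whole lung) at 14 to 50 µmol, of which 9 were moderate to severe dysplasia, 2 severe dysplasia, 1 carcinoma in situ and 1 squamous cell carcinoma (SCC) tumor. Ages were not given in the labels. A whole lung sample carries the grade of its lesions but holds all other lung cells as well, and no A/J sample of mild dysplasia was among those used. In 2 samples, mild dysplasia replicate 5 and normal replicate 10, the label of the grade and the description of the histology differed, and the grade was used. Samples from the same animal cannot be identified from the labels, so the p-values measure the spread between these samples.

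A ribosome holds 1 copy of nearly every one of these proteins, and cells keep the mRNAs of the set at matched levels. Most of these mRNAs start with a short run of pyrimidines, the TOP motif (terminal oligopyrimidine), through which mTOR signaling and the RNA-binding protein Larp1 control their translation and stability. Ribosomal protein mRNAs are abundant in growing and dividing cells, lymphocytes among them. The genes also left many processed copies in the mouse genome, and a read of 50 bases often fits the parent and a copy equally well.

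The summed expected counts ranged from 2667387 to 16534728 over the 25 samples, with a median of 9075416. The median transcript integrity number (TIN), an RNA quality score that rises with even coverage along transcripts, ranged from 21.7 to 75.1. Normal replicate 8, a whole lung sample of an SWR/J mouse, stood apart from the other normal samples. It had the lowest summed level of basal cell markers (30.3 CPM) and of club cell markers (730.4 CPM) of all samples and the highest of B cell markers (1621 CPM), so the comparisons of histology, sample type, strain and median TIN are given with and without it. The interactions and the fits to whole lung samples alone are given only with it.

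The copies decide which gene a read is assigned to, and the sequences below show how little separates them. In Rps3a, a small subunit protein, a coding stretch of 60 bases (coding bases 609 to 668 of 795) is given for the gene on the minus strand of chr3:85941862-85946624 and for its annotated copies Gm10119 (chr14:88522821-88523615, minus strand) and Gm9000 (NCBIM37). Capitals mark the bases that differ between the parent and either copy, and in the copy the bases that differ from the parent.
Rps3a: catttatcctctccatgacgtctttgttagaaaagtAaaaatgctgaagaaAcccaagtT
Gm10119: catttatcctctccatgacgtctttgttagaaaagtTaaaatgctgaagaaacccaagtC
Gm9000: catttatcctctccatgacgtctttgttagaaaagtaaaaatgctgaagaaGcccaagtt
Over all 795 coding bases Gm10119 differed from Rps3a at 4 and Gm9000 at 9. A stretch of Rps2, another small subunit protein, at coding bases 25 to 84 of 882, is set beside its copy on the X chromosome, Rps2-ps13. This copy differed from Rps2 at 7 of 882 bases. Each stretch of 60 bases was chosen separately, as the one with the most differing bases.
Rps2: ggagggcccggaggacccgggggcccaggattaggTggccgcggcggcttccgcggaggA
Rps2-ps13: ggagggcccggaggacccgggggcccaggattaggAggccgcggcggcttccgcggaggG
Of all windows of 50 bases in a member's transcripts, a median of 73.0% occurred in no other gene, from 1.01% in Rps27 to 100% in 6 members, and 981 other genes shared at least 1 window with a member. For 18 members under 50% of the windows were unique. Where reads fit several genes the counts are fractional, and 3.57% of the members' expected counts above 0 were whole numbers, against 69.7% over all genes.

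Transcription start regions were searched for CTTTC, a pyrimidine run of the kind that the set is known for, at any position in the window. The windows below run from 30 bases before to 20 after the annotated start of 4 members (RefSeq, GRCm38.p6, a later build than that of the counts), and capitals mark CTTTC, the letters searched for on the transcript strand. All 4 members shown hold a match, which many other windows of the set do not.
Rpl28 (chr7:4792935-4792984, plus): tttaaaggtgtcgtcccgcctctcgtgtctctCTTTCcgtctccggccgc
Rpl35 (chr2:39005112-39005161, minus): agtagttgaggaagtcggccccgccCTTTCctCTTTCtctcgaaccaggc
Rplp2 (chr7:141447621-141447670, plus): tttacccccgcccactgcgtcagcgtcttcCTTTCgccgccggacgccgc
Rps10 (chr17:27635225-27635274, minus): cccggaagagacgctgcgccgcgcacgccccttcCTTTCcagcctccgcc
Between 30 bases before and 50 after the start, CTTTC occurred in 35 of 73 windows of the 61 matched members (47.9%) and in 10.3% of 32851 windows of all genes. CCGGAAG, the core of ETS factor sites, occurred on either strand in 35.6% of the members' windows from 250 bases before to 50 after the start and in 8.86% of all. TATAAA was in 6.85% and 8.32%. A match of letters is a description, and no match says only that these letters were not in the window.

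Levels between genes were compared as CPM per kilobase of transcript. Over the 79 tested members the median of this level was 732.4, and it was 607.4 for the large and 1016 for the small subunit. The highest were Rpl23 (3179), the stalk protein Rplp1 (2671), Rps24 (2110) and Rpl18 (1955), and 30 members had 1000 or more. At the other end were 14 members under 60, among them Rpl3l (1.91), Rpl21 (7.74), Rps2 (8.31) and Rpl26 (14.0). Rpl3l is a muscle-restricted copy of Rpl3, and each of the other 13 has at least 1 copy that shares 10% or more of its windows.

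The members took 2.49% to 14.2% of a sample's counts, with a median of 4.40%. In mild dysplasia the shares were 4.07%, 3.22%, 2.49%, 3.45% and 3.90% for replicates 1 to 5. Normal samples ranged from 3.07% through a median of 4.87% to 14.2%, and high-grade samples from 3.03% through 4.81% to 11.1%. The mild samples thus lay at the low end, within or below the range of the other groups. Among SWR/J samples alone, the 4 normal samples had 4.87% to 14.2% and lay above all 5 mild samples, whereas the 3 A/J normal samples, at 3.07% to 4.01%, overlapped with them. Without normal replicate 8 the normal samples ranged up to 10.98%. In bulk samples, fewer cells rich in these mRNAs and less of them per cell cannot be told apart.

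**Figure D1:**
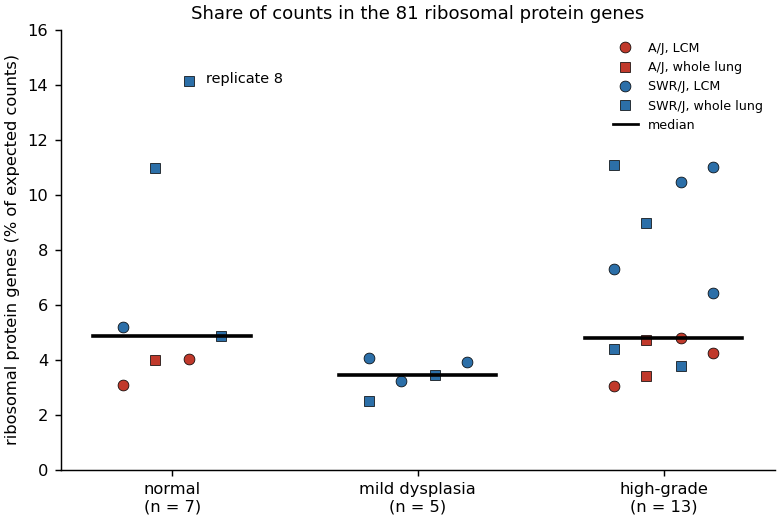
Share of each sample's expected counts (percent) in the 81 ribosomal protein genes for normal, mild dysplasia and high-grade samples; each point is a sample, its shape and color give sample type and strain, and bars mark group medians. The mild samples, at 2.49% to 4.07%, sit at the low end, and normal replicate 8 is the highest at 14.2%.

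Compared with normal samples, mild dysplasia had lower estimated ribosomal protein mRNA levels in both subunits, with calls that depended on normal replicate 8. In the edgeR quasi-likelihood test adjusted for strain, sample type and median TIN, 53 of 79 members were lower at a Benjamini-Hochberg adjusted p under 0.05 and 0 were higher, where 7.37% of all 15627 genes were lower. The 53 were 31 of 47 large and 22 of 32 small subunit members. The median log2 fold change was -1.41 (large -1.25, small -1.51) against -0.03 over all genes, and 77 members had values below 0. DESeq2 called 62 members lower and 0 higher, where it called 12.7% of all genes lower. With normal replicate 8 left out, edgeR called 3 of 79 members lower, where 4.35% of all genes were lower. The median was then -0.83, with 75 values below 0. Without covariates, all 5 mild samples lay below the normal median in 52 members (65.8%, and 18% of all genes), and below every normal sample in 4 members, Rpl34, Rpl37a and Rps24 among them (5.06%, and 0.896% of all genes).

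Rps29, a small zinc-binding protein of the small subunit, had a log2 CPM of 8.95, 8.71, 8.05, 8.69 and 8.82 in mild replicates 1 to 5 and 8.66 to 12.09, with a median of 9.56, in the normal samples. All 5 mild samples were below the normal median, with a log2 fold change of -1.77 (SE 0.42, edgeR adjusted p = 0.0193). The estimate was -1.32 without normal replicate 8 (edgeR adjusted p = 0.0633).

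The acidic stalk of the large subunit, which recruits the translation factors that hydrolyze GTP, is made of Rplp0, Rplp1 and Rplp2. Rplp2 had a log2 CPM of 8.07, 7.67, 8.24, 8.99 and 7.70 in mild replicates 1 to 5 and of 7.85 to 10.77, with a median of 8.86, in normal samples, and its log2 fold change was -1.41 (SE 0.31, edgeR adjusted p = 0.0168). Mild replicate 4 was above the normal median and the others below it. Rplp1 had 10.09, 9.89, 8.82, 9.87 and 9.96 against 9.62, 10.41 and 12.98 (lowest, median and highest) and fell by 1.49 (edgeR adjusted p = 0.0325). Without normal replicate 8 Rplp2 was still called (-1.01, edgeR adjusted p = 0.0472) and Rplp1 was not (-0.99, edgeR adjusted p = 0.155). Rplp0, the base of the stalk, had 10.30, 9.11, 9.51, 9.87 and 10.36 against 9.55, 10.32 and 11.66, and its estimate of -1.10 (SE 0.43) did not pass (edgeR adjusted p = 0.0849).

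Among small subunit proteins with known further roles, Rpsa, also described as a laminin receptor, had a log2 CPM of 9.20, 7.60, 8.86, 9.24 and 9.20 in mild replicates 1 to 5 and 8.85 to 11.82, with a median of 9.46, in normal samples. Every mild sample was below the normal median, and the log2 fold change was -1.74 (SE 0.53, edgeR adjusted p = 0.0383). It was -1.06 without normal replicate 8 (edgeR adjusted p = 0.195) and did not pass. Rps19, the gene most often mutated in Diamond-Blackfan anemia, had 9.47, 9.43, 8.73, 9.69 and 9.50 against a normal range of 9.25 to 12.06 with a median of 9.65. It was lower, with a log2 fold change of -1.22 (SE 0.39, edgeR adjusted p = 0.0460), and at -0.70 without normal replicate 8 (edgeR adjusted p = 0.243) did not pass. Rps6, the substrate of the S6 kinases downstream of mTOR, had an estimate of -1.11 (SE 0.42) that did not pass (edgeR adjusted p = 0.0761), although all 5 mild samples were below the normal median. Rps27a, made as a fusion with ubiquitin, had -1.07 (edgeR adjusted p = 0.0608).

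Rpl5 and Rpl11 bind the 5S ribosomal RNA together and can inhibit Mdm2, the ubiquitin ligase of p53. Rpl11 had a log2 CPM of 8.33, 8.58, 7.15, 7.98 and 8.16 in mild replicates 1 to 5, all under the normal median of 8.82, and fell by 1.21 on the log2 scale (SE 0.32, edgeR adjusted p = 0.0255), and had -0.98 without normal replicate 8 (edgeR adjusted p = 0.0741). Rpl5 as counted had 4.60, 5.72, 4.44, 4.91 and 5.79 against 4.87 to 5.61 in normal samples, with an estimate of 0.00 (SE 0.33, edgeR adjusted p = 0.999). Nearly all reads of this pair of parent and copy were assigned to the processed transcript Gm15500, which had a median of 820.1 CPM in mild and 1038 CPM in normal samples, against 29.9 and 39.0 CPM for Rpl5.

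Of the 4 named X-linked members, Rps4x and Rpl36a were lower in mild dysplasia (estimates -1.41 and -1.51, edgeR adjusted p = 0.0430 and 0.0361), while Rpl39 (-1.01, edgeR adjusted p = 0.0883) and Rpl10 (-0.37, edgeR adjusted p = 0.394) did not pass. The autosomal copy of Rpl36a, Rpl36al, was also lower (-1.04, edgeR adjusted p = 0.0485). None of these 3 passed without normal replicate 8, with -0.78 for Rps4x, -0.76 for Rpl36a and -0.75 for Rpl36al (edgeR adjusted p = 0.244, 0.246 and 0.176). Rps27l, a copy of Rps27 known as a p53 target, had 7.32, 7.48, 5.76, 7.40 and 7.70 in the mild samples and 6.20 to 8.25, with a median of 6.97, in the normal samples. It did not follow the set, with 4 of 5 mild samples above the normal median and an estimate of -0.11 (edgeR adjusted p = 0.871).

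**Figure D2:**
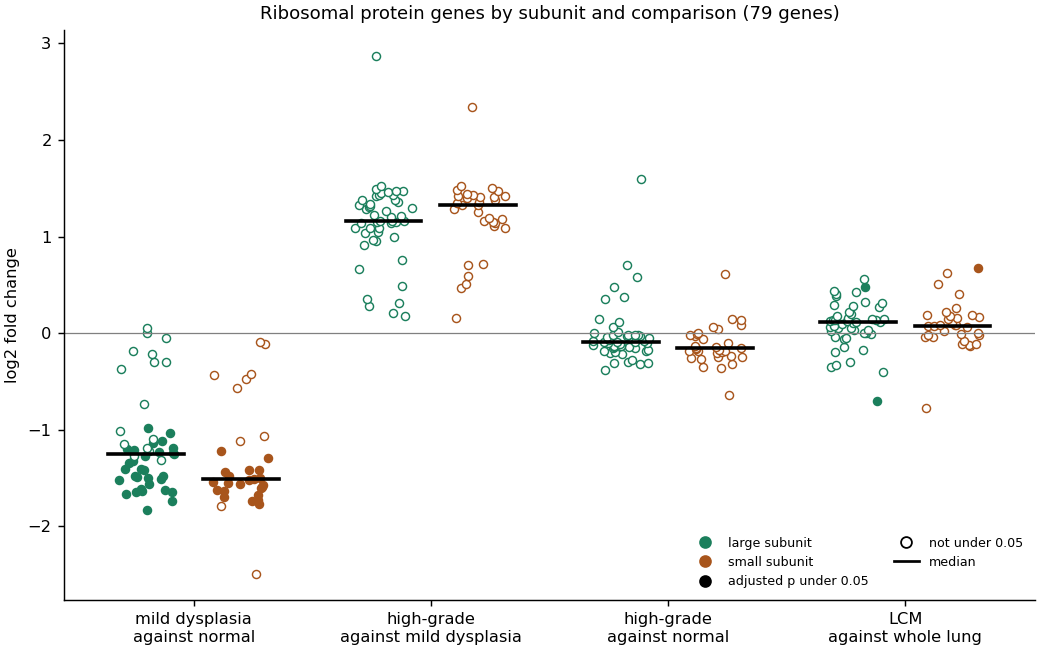
Log2 fold change of each of the 79 tested members (points, large and small subunit apart) in the 3 comparisons of histology and between sample types; filled points had an adjusted p under 0.05 and bars mark the medians of the subunits. Mild dysplasia against normal has its medians at -1.25 (large) and -1.51 (small), with 53 filled points, and high-grade against normal has its medians at -0.09 and -0.16 with none.

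Reads assigned to copies changed single genes more than the set. With each member's counts summed with those of its copies (238 copies of 59 members), 69 of 79 members were lower in mild dysplasia (39 large and 30 small), where 7.13% of all genes were lower, and 52 of these were also called as counted. With normal replicate 8 left out this sum gave 6 members called lower (4.45% of all genes were), with a median of -0.92 and 78 of 79 values below 0. Rpl5 and Rpl27a with their copies had -0.60 and -0.98 in that fit. In all 25 samples, as for the estimates and calls that follow, the values with copies summed ran from -1.81 to -0.12. Rps27, which as counted was at 0 reads in mild replicates 1 and 2 and had the lowest estimate (-2.49, SE 0.96, edgeR adjusted p = 0.0811), came to -1.77 (SE 0.46, edgeR adjusted p = 0.0248) with its copies. Rpl5, Rpl28, Rps13 and Rpl27a, which as counted had estimates of 0.00, -0.06, -0.09 and 0.05, came to -1.37, -1.39, -1.45 and -1.51, all with an edgeR adjusted p under 0.05. The 10 members not called in this way were Rpl4, Rplp0, Rps2, Rpl3, Rpl36al, Rpl10, Rpl21, Rps27l, Rpl10a and Rpl3l.

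**Figure D3:**
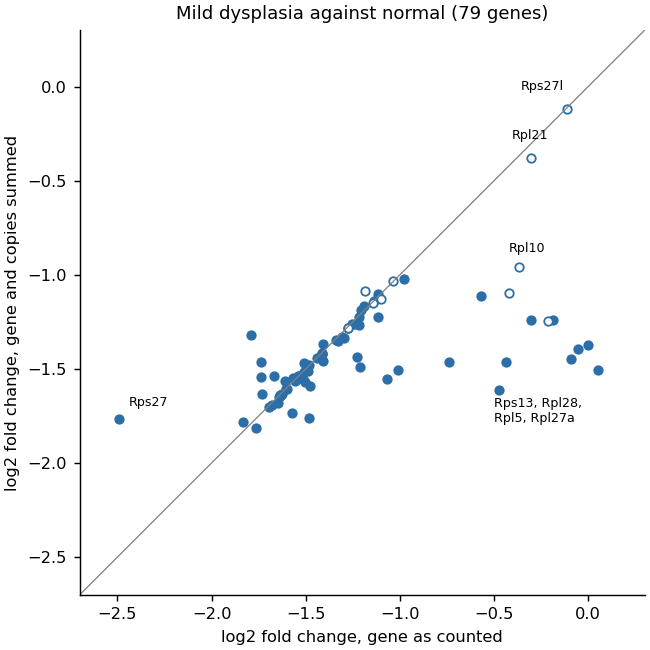
Log2 fold change of mild dysplasia against normal for the 79 members as counted (horizontal axis) and with the counts of copies added (vertical axis); filled points had an adjusted p under 0.05 with copies summed, and the line marks equal values. Rpl5, Rpl28, Rps13 and Rpl27a move from near 0 to between -1.51 and -1.37, while Rps27l stays near 0.

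Cell type markers moved with this comparison. All 5 T cell markers were lower in mild dysplasia (median log2 fold change -5.34), with a summed level of 13.9 to 117 CPM in mild and of 90.5 to 2201 CPM in normal samples. Of the 5 cycling markers, 2 were lower, Birc5 and Top2a, and of the 5 fibroblast markers 3 were higher (median 1.51). The alveolar type 2 marker Sftpd and the alveolar type 1 marker Pdpn were higher too, 1 of 5 in each list (medians 2.53 and 1.56). Of the T cell markers, 4 were called lower without normal replicate 8 (median -5.48). None of the 4 B cell markers was called (median -1.82). Their part in the result was not tested. The call depended on single samples: without normal replicate 8, 3 members were called lower, Rps15 and Rplp2 among them, with a median of -0.83 and 75 of 79 values below 0 (4.35% of all genes were then lower). Without mild replicates 1 to 5 in turn, 14, 12, 16, 23 and 33 members were called, and the shares of all genes called in these fits are not given. In LCM samples alone 0 members were called by edgeR, with 30 at an unadjusted p under 0.05 and a median of -0.72, and in whole lung alone 0, with 2 unadjusted and a median of -1.17.

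Between high-grade and normal samples no ribosomal protein gene passed the test. In edgeR, 0 of 79 members were called in either direction (0.0192% of all genes were), DESeq2 called 0, and the median was -0.11. In edgeR 1 member had an unadjusted p under 0.05 (Rpl27, estimate 0.58), as did 1418 of all 15627 genes. Without normal replicate 8 the median was 0.04, with 26 of 79 values below 0, 0 called and 1 at an unadjusted p under 0.05. The estimates ran from -0.64 for Rps3a to 1.59 for Rpl3l, whose edgeR adjusted p was 0.591. The direction of the median turned with the sample type: it was 0.65 in LCM samples alone, with 3 of 79 values below 0, and -0.74 in whole lung alone, with 70 below 0. The interaction of high-grade with sample type had a median of 0.97, and edgeR called 0 members (0% of all genes). An unadjusted p under 0.05 was found for 30 members and for 1110 of all 15627 genes. The interaction with strain had a median of 0.73, with 0 members called and 0 at an unadjusted p under 0.05 (668 of all genes were). DESeq2 was not run for the interactions. The whole lung fit and the interactions are given only with normal replicate 8, 1 of the 4 normal whole lung samples.

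Against mild dysplasia, all 79 members had higher estimates in high-grade samples, with a median of 1.22 (large 1.16, small 1.33). In edgeR 0 members were called (0.339% of all genes were). An unadjusted p under 0.05 was found for 61 members and for 3537 of all 15627 genes. DESeq2 called 49 members higher, where it called 5.04% of all genes higher. The median was 0.88 without normal replicate 8, with 0 called and 49 at an unadjusted p under 0.05. The estimates were lowest in Rps13 (0.15), Rpl10a (0.18) and Rpl21 (0.21) and highest in Rpl3l (2.87) and Rps27 (2.34). With copies summed, Rplp2 was the 1 member called (1.53, edgeR adjusted p = 0.0476). Without high-grade replicate 16, 46 members were called, and without high-grade replicate 15, 10. The shares of all genes called in these 2 fits are not given. The comparison shares its mild samples with the one above and is not separate evidence of their low level.

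By rank of grade, from 0 for normal to 4 for SCC tumor, 0 members were called by edgeR (0.39% of all genes were). DESeq2 called 0 too, and the median was 0.02 per rank. In edgeR 5 members had an unadjusted p under 0.05, as did 2124 of all 15627 genes. The members with the steepest estimates were Rpl3l (0.44), Rpl28 (0.34) and Rpl27 (0.26) upwards and Rps27 (-0.18), Rps3a (-0.14) and Rps29 (-0.10) downwards. Over the upper grades, the members' share of counts was 8.99% and 11.03% in the 2 severe dysplasias, 4.72% in the carcinoma in situ and 4.81% in the SCC tumor. The severe dysplasias were high-grade replicates 19 and 7, SWR/J samples with a median TIN of 33.9 and 21.7. The carcinoma in situ and the SCC tumor were A/J samples with a median TIN of 55.8 and 68.8. Their shares lay above those of all 3 A/J normal samples (3.07% to 4.01%). Grade, strain and TIN cannot be told apart in these samples. The median was 0.07 per rank without normal replicate 8, with 0 called and 6 at an unadjusted p under 0.05.

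RNA quality moved with the set. The 5 samples of lowest median TIN (21.7 to 39.1), all SWR/J, were high-grade replicates 7, 10, 18 and 19 and normal replicate 7, and had a share of 8.99% to 11.1%. The next in order of TIN, mild replicate 1 at 39.5, had 4.07%. The other 20 samples had 2.49% to 14.2%, and 2.49% to 7.31% without normal replicate 8. Per 10 points of median TIN, 12 of 79 members were lower in edgeR and 0 higher, where 3.62% of all genes were lower. The median log2 change was -0.20 and 72 members had values below 0.

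Rpl39, which codes for one of the smallest ribosomal proteins, changed most with median TIN (-0.73 per 10 points, SE 0.12, edgeR adjusted p = 0.00122), followed by Rpl27a (-0.72) and Rps27a (-0.53). Rpl35, Rps28, Rpl11, Rpl37a, Rps26, Rpl38, Rpl10 and Rpl36al were also among those lower. At the other end were Rpl3 (0.44, edgeR adjusted p = 0.0921), Rpl17 (0.28) and Rpsa (0.20), none of which passed, and with copies summed these came to -0.11, -0.12 and -0.21. With copies summed 7 members were called lower, Rpl39 (-0.49), Rpl37, Rps28, Rps26, Rps12, Rps29 and Rpl36al, where 519 of all 15528 genes were lower. As counted, the number called was 25 without normal replicate 8, 5 without normal replicate 7, and 7 without normal replicate 3 or without high-grade replicate 5. The shares of all genes called in these fits are not given. The 5 samples of lowest TIN also had high levels of skeletal muscle markers (1455 to 9934 CPM summed, median 8744), against 1.38 to 1456 CPM (median 142) in the other 20, and the part of either in the result was not tested.

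**Figure D4:**
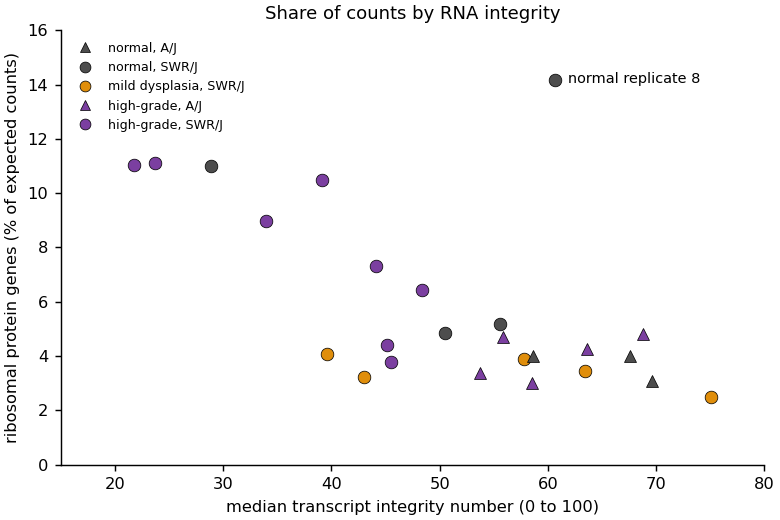
Share of counts in the 81 members (percent) against median TIN; each point is a sample, its shape giving the strain and its color the group. The 5 samples of lowest TIN have 8.99% to 11.1%, mild replicate 1 at a TIN of 39.5 has 4.07%, and normal replicate 8, at a TIN of 60.7 and 14.2%, lies apart from the other samples of its TIN.

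Few members passed the test between LCM and whole lung samples. With a median log2 fold change of 0.09, 2 of 79 members were higher in LCM and 1 was lower (14.7% of all genes were called). Rplp2 had a log2 CPM of 7.67 to 9.91 with a median of 8.48 in LCM and of 8.24 to 10.77 with a median of 9.28 in whole lung, so the groups overlapped, and was lower in LCM (-0.70, SE 0.20, edgeR adjusted p = 0.0216). It was -0.65 with copies summed (edgeR adjusted p = 0.0318). Rpl21 (0.47, edgeR adjusted p = 0.0421) and Rps2 (0.67, edgeR adjusted p = 0.0460) were higher. With copies summed Rpl21 was 0.50 (edgeR adjusted p = 0.0337) and Rps2 0.10 (edgeR adjusted p = 0.844), which did not pass. With normal replicate 8 left out, 3 members were called and the median was 0.19. Of the endothelial markers, which show how far the capture left out vessels, 5 of 5 were lower in LCM. With any of 15 single samples left out, 1 member was called. The shares of all genes called in the fits with samples left out are not given.

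Between strains, 2 members stood far from the rest. Rps3a had 1.97 to 65.4 CPM (median 10.9) in the 8 A/J samples and 573 to 4158 CPM (median 1455) in the 17 SWR/J samples. The ranges did not overlap, with a log2 fold change of -7.10 in A/J (SE 0.69, edgeR adjusted p = 1.04e-06). Rps2 went the other way, with 116 to 343 CPM (median 180) in A/J and 1.76 to 11.5 CPM (median 5.97) in SWR/J, a log2 fold change of 4.83 (SE 0.34, edgeR adjusted p = 2.40e-08). These were the only members called in edgeR (1.02% of all genes were), while DESeq2 called 9 (6.15% of all genes). The median over the members was -0.72, with 69 of 79 below 0 and 26 at an unadjusted p under 0.05 (2742 of all 15627 genes were). Without normal replicate 8 the median was -0.25, with 64 of 79 below 0, 8 at an unadjusted p under 0.05 and 3 called. The share of all genes called in this fit without normal replicate 8 is not given.

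The levels of the copies also differed between the strains. Gm9000 had 521 to 1014 CPM in A/J and 0 to 9.80 in SWR/J, and Gm10119 had a median of 751 in A/J and 188 in SWR/J. Rps3a with all its copies came to a median of 1399 CPM in A/J and 1631 in SWR/J, and the ranges of 1134 to 2380 and 669 to 5073 overlapped. For Rps2, Rps2-ps13 had 0 to 4.39 CPM in A/J and 78.8 to 751 in SWR/J, and the sum over all copies had medians of 187 and 216. Rpl34 showed the same to a lesser degree, with medians of 362 CPM in A/J and 89.1 in SWR/J (edgeR adjusted p = 0.0584), while its copy Rpl34-ps1 had 150 and 803 (edgeR adjusted p = 0.00720). With copies summed, edgeR called 0 members between strains, with 27 at an unadjusted p under 0.05 (2713 of all 15528 genes were). Rps3a, Rps2 and Rpl34 then had estimates of -0.63, -0.98 and -1.10, within the range of the other members. The median over the members was -0.74, and Rps2 and Rpl34 lay toward the low end. DESeq2 was not run with copies summed. Whether the strains differ from the reference genome at the bases shown was not tested.

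**Figure D5:**
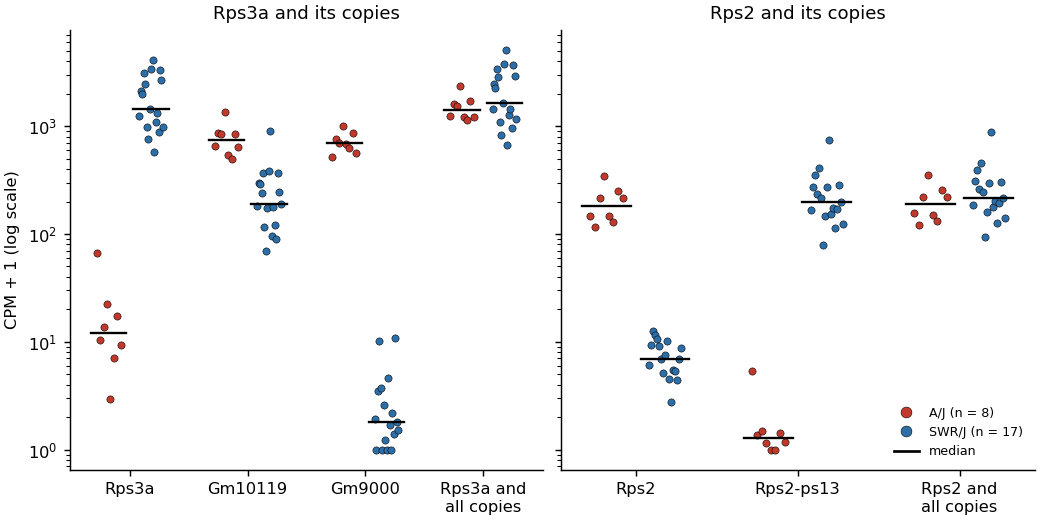
Level (CPM + 1, log axis) of Rps3a and Rps2, of the named copies and of the sums over the gene and all its copies in the 8 A/J and 17 SWR/J samples, each point a sample. Parent and copy trade places between the strains (Rps3a medians 10.9 and 1455 CPM, Rps2 medians 180 and 5.97 CPM), while the sums overlap.

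Strain and RNA quality also moved together. A/J samples had a share of counts of 3.03% to 4.81% and no median TIN under 53.7. Of the 5 SWR/J samples at or above that TIN, 3 were mild dysplasia, at 2.49%, 3.45% and 3.90%, and 2 were normal replicates 3 and 8, at 5.18% and 14.2%, both above every A/J sample. Without median TIN as a covariate, 57 members differed between strains, 55 of them lower in A/J. The share of all genes called in that fit is not given, so the count does not set the members apart from other genes.

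The balance of the subunits varied less between samples than the mean log2 CPM of the set, which had an SD of 0.79. Members of both subunits moved together, so a smaller spread of their difference is bound to follow and is not evidence of a held balance. On the log2 scale of CPM per kilobase, the mean of the large minus that of the small subunit members was -0.58 ± 0.13 (SD, n = 25), from -0.91 in normal replicate 8 to -0.40 in mild replicate 2, and it was below 0 in all 25 samples. Normal samples had -0.63 ± 0.16 (SD, n = 7), mild dysplasia -0.52 ± 0.10 (SD, n = 5) and high-grade -0.57 ± 0.12 (SD, n = 13), so the groups overlapped. Among SWR/J samples alone, the 4 normal samples had -0.91 to -0.60 and the 5 mild samples -0.66 to -0.40. The 3 A/J normal samples had -0.61 to -0.44. With copies summed the difference was -0.66 ± 0.06 (SD, n = 25).

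Across the 25 samples the members' log2 CPM followed one another closely. The correlation of a member with the mean of the others, a description over samples that share group, TIN and strain, had a median r of 0.95, with 49 of 79 members over 0.9 and 9 under 0.5. Rps2 was lowest at -0.23. With copies summed the median was 0.98, 73 members were over 0.9 and 1, Rpl21 at 0.46, was under 0.5. Of the paralogs with few copies, Rpl36al followed the set (r = 0.96), Rps27l less so (0.71) and Rpl3l least of the 3 (0.61). Rpl3l instead had an r of 0.95 (n = 25) with the summed skeletal muscle markers. It was highest in high-grade replicates 18, 19 and 10 (55.6, 54.8 and 36.3 CPM), where these markers summed to 8744 to 9934 CPM, and lowest in high-grade replicate 23 (0.106 CPM), where they summed to 1.38 CPM.

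Further lists of translation genes were compared between mild dysplasia and normal samples, where 7.37% of all genes were lower. Of 21 translation factors and partners whose mRNAs carry TOP motifs, 6 were lower than in normal samples and 0 higher, among them Gnb2l1 (-1.33), the ribosome-bound scaffold Rack1, and the elongation factor subunit Eef1b2 (-1.26), and all 21 had values below 0 (median -0.86). Of 26 ribosome biogenesis genes 4 were lower, Wdr12 (-1.76), Emg1 (-1.44), Nop10 (-1.25) and Polr1d (-1.05), with a median of -0.52. The 77 mitochondrial ribosomal protein genes, a set with separate proteins and genes, had 16 lower and 0 higher (median -0.63). DESeq2 called 12, 9 and 37 of these lists lower, where it called 12.7% of all genes lower. Of 12 genes that control ribosomal protein synthesis, such as Mtor, Myc and Larp1, edgeR called 0, with 1 at an unadjusted p under 0.05, DESeq2 called 1, and the median was -0.20. Without normal replicate 8 the TOP-bearing list had 0 called by edgeR, with 3 at an unadjusted p under 0.05 and all 21 values below 0 (median -0.55). The biogenesis list then had 3 called lower (median -0.33) and the mitochondrial list 3 (median -0.56), where 4.35% of all genes were lower.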

How the data were processed

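RNA was sequenced by the authors as single-end reads of 50 bases from poly(A) libraries. They trimmed the reads with Trimmomatic, aligned them with STAR to mm9 and deposited expected counts per gene from RSEM with Ensembl annotation, not normalized. The expected counts were rounded and tested with edgeR 4.0.16 (TMM, robust quasi-likelihood) in R 4.3.3, adjusted for strain, sample type and median TIN, on 15627 genes that passed the study's filter (an interquartile range above 0 and a sum of log2 CPM (counts per library size) above 1, prior count 2), in 25 samples. P-values were adjusted by Benjamini-Hochberg over all these genes, with 0.05 as threshold. A count at an unadjusted p that stands without the count over all genes does not set the counted genes apart. DESeq2 1.42.0 was an alternative. The fit was tested on simulated data.

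Copies were unnamed genes or pseudogenes that share at least 10% of a member's windows of 50 bases in NCBIM37, the build of mm9. The sum over copies was chosen after seeing the data. Members and lists were chosen with earlier results of these data known. Named members are the stalk proteins, Rpsa, Rps6, Rps27a, Rpl5, Rpl11, Rps19, 4 X-linked genes, the paralogs with their parents, and the 3 lowest and 3 highest estimates of each comparison. Others, such as Rps29, Rpl34, Rpl35, Rps10 and those listed by their calls or levels, were named after their values were seen. Some members that these rules name are not reported here.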

Additional observations from a re-analysis of the deposited data

Results flagged for a closer look

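In 12 of 70 groups tested (the normal and the mild dysplasia samples, for each of the 32 named members that were tested and for 3 summaries of the set) the highest or lowest sample's gap to its neighbor was above Dixon's critical value, which chance exceeds in about 1 of 20 independent groups. The members moved together over the same samples, and some were named for their estimates. The number of flags therefore cannot be set against that rate. Mild dysplasia replicate 3, a whole lung sample, was far below the other 4 in the log2 CPM of 5 members: Rpl36a (7.47, the others 8.56 to 8.71), Rpl36al (6.46, the others from 7.51), Rplp1 (8.82, the others from 9.87), Rps19 (8.73, the others from 9.43) and Rps27l (5.76, the others from 7.32). Mild dysplasia replicate 2, an LCM sample, was far below in Rpl3 (5.38, the others 7.13 to 7.65) and Rpsa (7.60, the others from 8.86). Normal replicate 7, the normal sample of lowest median TIN, was far above the others in Rpl10 (10.85, the others 8.96 to 9.60) and Rpl27a (7.80, the others up to 6.09) and far below them in Rps13 (2.04, the others from 3.29). Normal replicate 8 was far above in Rpl17 (10.51, the others up to 8.99) and Rpl3 (9.51, the others up to 7.64).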

How the results depend on the processing

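The median log2 fold change of the members kept its sign in mild dysplasia against normal under all 39 alternatives (-1.60 to -0.72), in high-grade against mild dysplasia (0.42 to 1.60), in A/J against SWR/J (-1.20 to -0.25) and per 10 points of median TIN (-0.38 to -0.13), but not in high-grade against normal (-0.74 to 0.65), by rank of grade (-0.21 to 0.30) or in LCM against whole lung (-0.38 to 0.19). The counts of members called were less stable. They are given here without the share of all genes called, so they do not set the members apart from other genes. In mild dysplasia against normal (53 called), 26 were called in SWR/J samples alone, 24 without the samples of unclear histology, and 0 in LCM alone, in whole lung alone, with all 40 collected samples and without strain and sample type as covariates, where 30, 2, 33 and 60 had an unadjusted p under 0.05. With single samples left out the count ran from 3 (without normal replicate 8) to 55. With copies summed and normal replicate 8 left out it was 6. The cause was not tested. In high-grade against mild dysplasia (0 called), DESeq2 called 49, LCM alone 22, the fit without median TIN 62, and copies summed and the fit without strain and sample type 1 each, with 0 to 46 when single samples were left out (46 without high-grade replicate 16, 10 without replicate 15, 1 without normal replicate 9). By rank of grade (0 called), 1 was called without strain and sample type. In LCM against whole lung (3 called), DESeq2 called 5, SWR/J alone 0, and all collected samples, no filter on low counts and the removal of unclear histology 1 each, with 1 to 3 when single samples were left out. In A/J against SWR/J (2 called), DESeq2 called 9, library size without TMM 4, whole lung alone 1, copies summed 0 and the fit without median TIN 57, with 2 to 7 when single samples were left out (7 without high-grade replicate 16). For median TIN (12 called), DESeq2 called 19, SWR/J alone 7, LCM alone 0, whole lung alone 4, all collected samples 38, copies summed 7 and the fit without strain and sample type 52, with 5 to 25 when single samples were left out.

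In mild dysplasia against normal, members with estimates near 0 changed sign. Rpl5 (0.00) was -0.0194 with DESeq2, -0.0207 with size factors by relative log expression, -0.12 in SWR/J alone, -0.60 with all collected samples, -1.37 with copies summed (-0.60 also without normal replicate 8), -0.44 in whole lung alone, -0.0478 without median TIN, -0.23 without unclear histology, -0.0904 without strain and sample type, and -0.16 to 0.17 with single samples left out. Rpl27a (0.05) was -1.51 with copies summed (-0.98 also without normal replicate 8), -0.11 in whole lung, -0.55 without median TIN, -0.23 without strain and sample type, and -0.28 to 0.29 with single samples left out. Rpl28 (-0.06) was 0.0175 in LCM, 0.29 with all collected samples, 0.0927 without TMM, and -0.67 to 0.28 with single samples left out. Rps27l (-0.11) was 0.34 in LCM and in whole lung, each alone, 0.19 with all collected samples, 0.10 without TMM and with copies summed and normal replicate 8 left out, 0.13 without strain and sample type, and -0.41 to 0.11 with single samples left out. Rpl10 was 0.62 in whole lung, Rpl3 0.00786 in LCM, and Rpl3l 1.504 in whole lung and 0.59 without strain and sample type. Between strains, copies summed turned Rps2 (-0.98), Rpl34 (-1.10) and Rpl27a (-0.64), and Rpl27a was -1.25 without median TIN. For median TIN, copies summed turned Rpl3 (-0.11), Rpl17 (-0.12) and Rpsa (-0.21), and Rpsa was -0.0216 without strain and sample type. No paired analysis was possible because no replicate number is shared between the groups as a pairing of animals or batches. The number of samples, above all 5 in mild dysplasia, and reads shared with copies limit these results.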
